A study of Mus musculus with 2 samples.

Results

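Transcript levels of 9 genes that write or read DNA methylation were compared between embryonic fibroblasts (MEFs, connective tissue cells cultured from mouse embryos) labelled as lacking the kinase Lats2 and fibroblasts labelled as carrying it. The 9 genes were Dnmt1, Dnmt3a, Dnmt3b, Dnmt3l, Uhrf1, Hells, Mbd1, Mbd2 and Mbd3, and every noncontrol probe that carries one of these names on the array was taken. All 9 were measured, by 15 probes, among 27579 gene names with a value. Both RNAs came from untreated C57BL/6J fibroblasts, one of genotype Lats2-/- (KO) and the other Lats2+/+ (WT). The first array held KO RNA labelled with the red dye Cy5 and WT RNA labelled with the green dye Cy3, and the dye-swapped array held the reverse. How many embryos stand behind each RNA is not given in the sources used here. The labels name 1 pair of RNAs, and the 2 arrays count as 1 replicate, so the spread between them measures hybridisation and dye error, and no difference between the genotypes has a replicate check. Every ratio below is the log2 of KO over WT, with the sign of the dye-swapped array turned.

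DNA methylation places methyl groups on cytosines, mostly where a C is followed by a G (CpG), and dense methylation of a promoter goes with silence of its gene. Dnmt1 copies the pattern onto the new strand after replication. Uhrf1 recognises the hemimethylated DNA left by the replication fork and recruits Dnmt1 to it, and Hells (also called Lsh) is a chromatin remodeller that gives the enzymes access to nucleosomal DNA. Dnmt3a and Dnmt3b set new methylation, and Dnmt3l is their catalytically inactive partner, known from germ cells. Mbd1 and Mbd2 bind methylated CpG and bring in repressors. Mbd3, a close relative of Mbd2 in mammals with little affinity for methylated DNA, is a subunit of the NuRD remodelling and deacetylase complex.

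The targeted gene was examined first. On the first and the dye-swapped array the brightest of the 4 Lats2 probes had log2 ratios of 0.52 and 0.60, and another pair of probes had means of 0.56 and 0.63. The remaining probe had ratios of -0.18 and -0.51. Thus 3 of the 4 probes gave more signal in the RNA labelled KO, which goes against the label unless these probes lie outside the deleted part. Where the deletion lies relative to the probes is not given in the sources used here, and an exchange of labels or dyes was not tested. All directions below therefore rest on the labels, and the samples are called by them, as KO-labelled and WT-labelled RNA, whichever dye they carried. Over 24186 probes well above background, r between the arrays was 0.937 (Pearson) and rho 0.857 (Spearman), a description across probes, which are not replicates. From one array to the other a single ratio had an SD of 0.136 log2 units, and of 0.12 to 0.15 when probes were split into 10 bins of intensity. Errors given below as SE are the SD of a probe's own bin carried to the mean of 2 arrays. Of 12 fibroblast markers all 12 stood well above background (a flag set by the image analysis program, on both arrays) in WT-labelled RNA and 11 in KO-labelled RNA, the exception being Vim, and their median ratio was -0.38. The markers did not all go one way. At 1.4-fold on both arrays 2 were lower (Vim at -0.89 and Col1a1 at -0.56) and 1 was higher (Fn1 at 0.89). The summed level of the 12 markers was 125000 to 132000 units in KO-labelled RNA and 150000 to 157000 in WT-labelled RNA. The markers of other cells that stood above background were 0 of 5 for endothelium, 2 of 6 for epithelium (without Epcam and Cdh1), 4 of 6 for blood cells (without Ptprc), 4 of 6 for neural cells and 1 of 6 for pluripotent and germ cells. The summed level was 2420 to 2460 units in KO-labelled RNA and 3520 to 3570 in WT-labelled RNA for the neural list and between 325 and 549 units in either RNA for each of the others, sums over different probes that do not rank the cell types. In the neural list Map2 alone passed 1.4-fold, lower, at -0.95. Its 4 probes ran from -0.95 to -0.16. The part of these other cells in the ratios below was not tested.

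Among the maintenance genes Uhrf1 was lower in KO-labelled RNA, Hells was lower to a smaller extent, and Dnmt1 hardly differed. Uhrf1 had the largest ratio in size of the 9 genes. Its brightest probe, on chromosome 17 at 55956943 to 55957002 (all probe positions are on the mm8 build of the files, and the exons they fall in were not analysed here), gave a normalised intensity of 3690 and 3590 units in KO-labelled RNA and of 6040 and 5740 in WT-labelled RNA, on the first and the dye-swapped array. Both KO values lay below both WT values. The log2 ratios were -0.71 and -0.68, with a mean of -0.69 ± 0.10 (SE), so the level was 61.9% of that in WT-labelled RNA. A second Uhrf1 probe, at 55956840 to 55956899, gave 1890 and 1800 units against 2800 and 2790, with ratios of -0.57 and -0.63 and a mean of -0.60 ± 0.10. The 2 probes differed by -0.09 with an SE of 0.14, less than the spread. They start 103 bases apart and so report on nearly the same stretch.

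Hells, measured by 1 probe on chromosome 19 at 39030568 to 39030627, had intensities of 907 and 922 units in KO-labelled RNA and of 1190 and 1240 in WT-labelled RNA. Both KO values again lay below both WT values, as they also did for Dnmt1, Dnmt3b and Mbd3. For Mbd1 and Mbd2, at their brightest probes, both lay above. The share of all genes with such an order was not counted, so it is not read as a mark of these genes. The ratios of Hells, -0.40 and -0.42, gave a mean of -0.41 ± 0.10, or 75.3% of the WT level. The difference between Uhrf1 and Hells was -0.28 with an SE of 0.14, which is 2.0 times its error.

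Dnmt1 behaved otherwise. Its single probe maps to chromosome 9 at 20657931 to 20658299. This is a span of 369 bases on the genome, against 60 for most probes, and not a probe length. The probe gave 2090 and 2170 units in KO-labelled RNA against 2190 and 2250 in WT-labelled RNA. Both KO values lay below both WT values here too, by a small margin. The ratios were -0.07 and -0.05 and their mean was -0.06 ± 0.10, within the spread between arrays. Uhrf1 stood apart from Dnmt1 by -0.64 and -0.62 on the single arrays, a mean difference of -0.63 with an SE of 0.14, and Hells stood apart from it by -0.35 with the same SE. The 3 maintenance genes were thus not lower to the same extent in these RNAs.

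**Figure D1:**
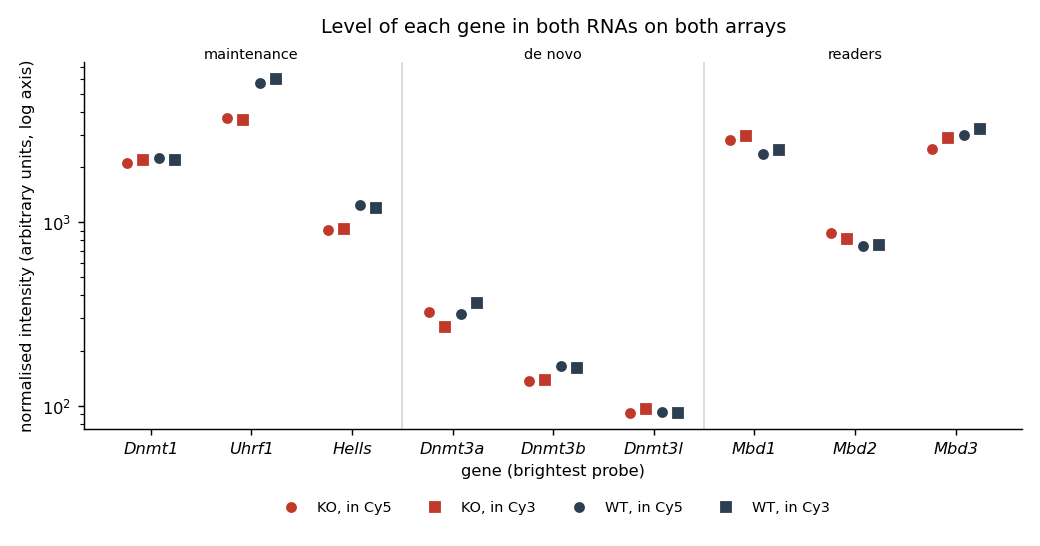
Normalised intensity (log axis, arbitrary units) of the brightest probe of each of the 9 genes, with 1 point for each RNA and dye (red, KO; dark, WT; circles, Cy5; squares, Cy3). All KO points lie below all WT points for Uhrf1, Hells, Dnmt3b, Mbd3 and Dnmt1. The gap of Dnmt1 is small, and the 4 points of Dnmt1 and of Dnmt3l nearly coincide. Heights of different genes come from different probes and are not comparable.

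Promoters of the members were read for letters typical of sites of E2F factors, which drive genes of S phase. TTTCCCGC, TTTCGCGC, TTTGCCGC and TTTGGCGC were searched on both strands, with overlapping matches counted, in RefSeq windows of 300 bases that run from 250 before a transcript start to 50 after it (GRCm38.p6). A match was present in 2.26% of 32851 windows and, counted by gene, in 2.6% of 27025 genes. Windows of 7 of the 9 genes were read, and 3 genes held a match, which were Uhrf1, Hells and Dnmt1. The upstream parts of the Uhrf1 window (chromosome 17, 56304063 to 56304312, plus strand) and of the Hells window (chromosome 19, 38930740 to 38930989, plus strand) are shown because these are the members with the lowest ratios, with the matches in capitals.
Uhrf1: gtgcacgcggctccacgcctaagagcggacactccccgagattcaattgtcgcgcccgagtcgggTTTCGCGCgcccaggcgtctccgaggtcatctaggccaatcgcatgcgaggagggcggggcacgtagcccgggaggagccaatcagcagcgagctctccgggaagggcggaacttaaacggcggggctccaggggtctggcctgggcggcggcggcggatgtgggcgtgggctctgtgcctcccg
Hells: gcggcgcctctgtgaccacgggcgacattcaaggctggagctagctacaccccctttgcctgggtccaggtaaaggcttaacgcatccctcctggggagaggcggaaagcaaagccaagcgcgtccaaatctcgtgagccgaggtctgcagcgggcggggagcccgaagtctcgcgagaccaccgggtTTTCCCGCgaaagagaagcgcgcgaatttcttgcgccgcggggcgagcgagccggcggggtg

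The Uhrf1 match, TTTCGCGC, began 185 bases before the start, and the Hells match, TTTCCCGC, began 62 bases before it. In Dnmt1 the window of 1 of its 3 starts held 2 matches, TTTCGCGC on the opposite strand 219 bases before the start and TTTGGCGC 34 bases after it. Dnmt1, whose ratio lay within the spread, therefore carried these letters too. Other windows of Uhrf1 and Dnmt1, and all those of Dnmt3a, Dnmt3b, Dnmt3l and Mbd3, held none. The 3 windows with matches had 33 or 34 CpG, against a median of 7 over all windows, and the highest count among the members was 47 in Dnmt3a. A match is a string of letters and not a site shown to be used.

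The de novo genes differed little between the RNAs as processed here, though the ratio of Dnmt3b depended on the processing. Dnmt3b, measured by 1 dim probe (chromosome 2, 153378788 to 153378847), gave 137 and 139 units in KO-labelled RNA and 160 and 164 in WT-labelled RNA. Its ratios were -0.22 and -0.24, with a mean of -0.23 ± 0.09. The KO values lay below the WT values. With an offset of 10 in place of 50 in the background correction Dnmt3b was at -0.32, and without background subtraction at -0.33. With Feature Extraction's own ratio Dnmt3b was at -0.52.

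Dnmt3a had 3 probes on chromosome 12. The brightest (3906882 to 3907663) gave 326 and 268 units in KO-labelled RNA against 362 and 317 in WT-labelled RNA, so the groups overlapped across arrays although each array had the KO channel lower. The ratios were -0.15 and -0.24, and the mean was -0.19 ± 0.10. The probe at 3912604 to 3912663 had a mean of -0.28 ± 0.09 and the probe at 3908241 to 3908300 one of -0.01 ± 0.09. The brightest probe differed from these by 0.08 with an SE of 0.14 and by -0.19 with an SE of 0.13. Neither difference exceeded 2 SE. Dnmt3b and Dnmt3a themselves were -0.04 apart, with an SE of 0.13.

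Dnmt3l (chromosome 10, 77466496 to 77466555) was the dimmest of the 9, at 91.8 and 96.5 units in KO-labelled RNA and 91.8 and 92.3 in WT-labelled RNA. Its probe passed the background flag in both RNAs, but only 12.5% of the genes tested were as dim or dimmer. The mean ratio was 0.03 ± 0.08. It turned to -0.13 with Feature Extraction's own ratio, so it has no direction here.

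The readers did not go one way. Mbd1 and Mbd2, which lie on chromosome 18, were higher in KO-labelled RNA at their brightest probes, and Mbd3 was lower. For Mbd1 the brightest probe gave 2800 and 2950 units in KO-labelled RNA and 2470 and 2360 in WT-labelled RNA. The ratios were 0.18 and 0.32 and the mean was 0.25 ± 0.10. A second probe of the same RefSeq transcript had a mean of 0.24 ± 0.10. The third, designed on a separate cDNA and 12946 bases from the brightest, had ratios of -0.20 and -0.48 and a mean of -0.34 ± 0.09. The brightest probe exceeded it by 0.59 with an SE of 0.14, or 4.3 times the error, and in the same direction on each array. The probes of Mbd1 thus disagreed in sign, and the mean over all 3 was 0.05. Which transcripts each probe reports was not analysed here.

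For Mbd2 the brighter probe gave 876 and 809 units in KO-labelled RNA and 751 and 741 in WT-labelled RNA. Its ratios of 0.22 and 0.13 had a mean of 0.17 ± 0.10, which does not reach 2 SE. The dimmer Mbd2 probe, which missed the background flag for WT on the first array, was at 0.06 ± 0.09.

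Of the 9 brightest probes, that of Mbd3 differed most between the arrays. Its probe (chromosome 10, 79798248 to 79798307) gave 2490 and 2870 units in KO-labelled RNA and 3200 and 3000 in WT-labelled RNA. The groups did not overlap, yet the ratio was -0.36 on the first array and -0.07 on the dye-swapped one. The mean of -0.21 ± 0.10 therefore rests mainly on 1 dye orientation. Mbd3 differed from its relative Mbd2 by -0.58 and -0.20 on the single arrays, a mean of -0.39 with an SE of 0.14.

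**Figure D2:**
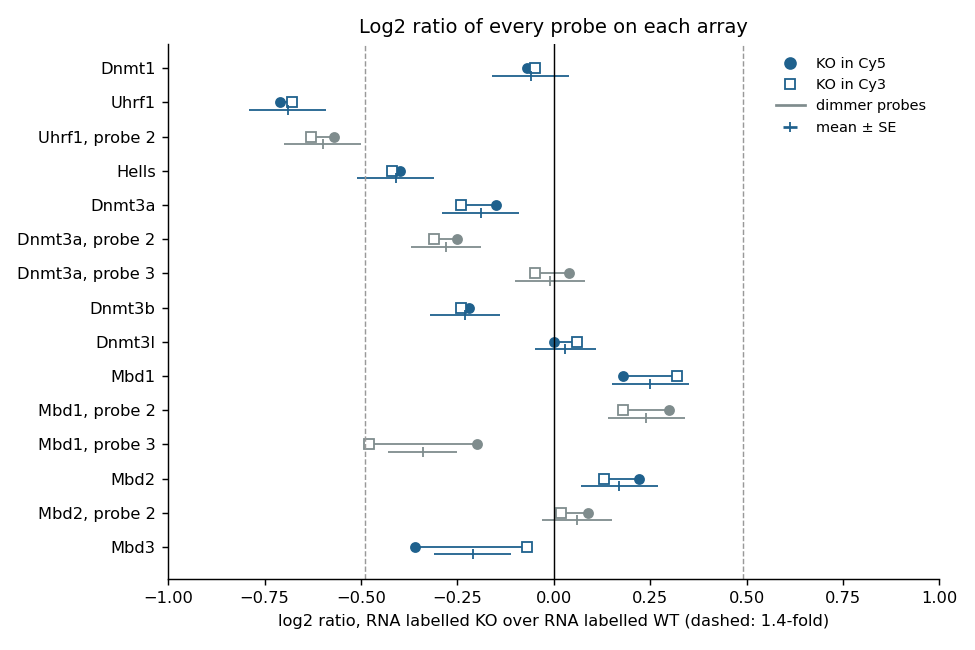
Log2 ratio of KO over WT for all 15 probes, with filled circles for the array with KO in Cy5, open squares for the array with KO in Cy3, and the mean with its SE just below each; grey marks the dimmer probes of a gene and dashed lines mark 1.4-fold. Both Uhrf1 probes lie beyond the 1.4-fold line on each array, and the third Mbd1 probe lies on the other side of 0 from the first 2.

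The study's threshold for these arrays was a fold change of 2, and its methods name 1.4 for other arrays of the study. At 2-fold on both arrays 0 of the 9 genes were higher and 0 were lower, where 2.95% and 2.61% of the 15877 genes well above background passed in these directions (469 higher and 414 lower, or 250 and 138 with median centring in place of loess). The methods pair this fold with a t-test, and the pair likewise called 0 of the 9. Since no member reached 2-fold, the t-test could not change that count. It is not read here as a test of the members by itself. At 1.4-fold, 1 of the 9, Uhrf1, was lower and 0 were higher, against 9.50% and 9.35% of all genes, and with median centring Uhrf1 no longer passed on both arrays. Beyond 2 SE of the mean, 4 of the 9 were lower (Uhrf1, Hells, Dnmt3b and Mbd3) and 1 was higher (Mbd1), against 28.7% and 27.4% of all genes. With such shares over all genes, a place beyond 2 SE is no mark of these 9. The counts at 2-fold and at 1.4-fold were also near the shares over all genes.

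In the order of the brightest probes the ratios ran from Uhrf1 (-0.69) through Hells (-0.41), Dnmt3b (-0.23), Mbd3 (-0.21), Dnmt3a (-0.19), Dnmt1 (-0.06), Dnmt3l (0.03) and Mbd2 (0.17) to Mbd1 (0.25). The neighbours from Hells onwards were each less than 2 SE apart. The first pair, Uhrf1 and Hells, was 2.0 SE apart. The median of the 9 was -0.19, with -0.15 on the first array and -0.07 on the dye-swapped one, and that of all genes tested was -0.004. In size the median ratio was 0.21 for the 9 genes and 0.23 for all. In the direction of the labels, and counted from the lowest ratio, Uhrf1 lay at percentile 6.59 of all genes tested and Hells at percentile 14.9, whereas the other 7 lay between percentiles 25.7 and 77.1.

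**Figure D3:**
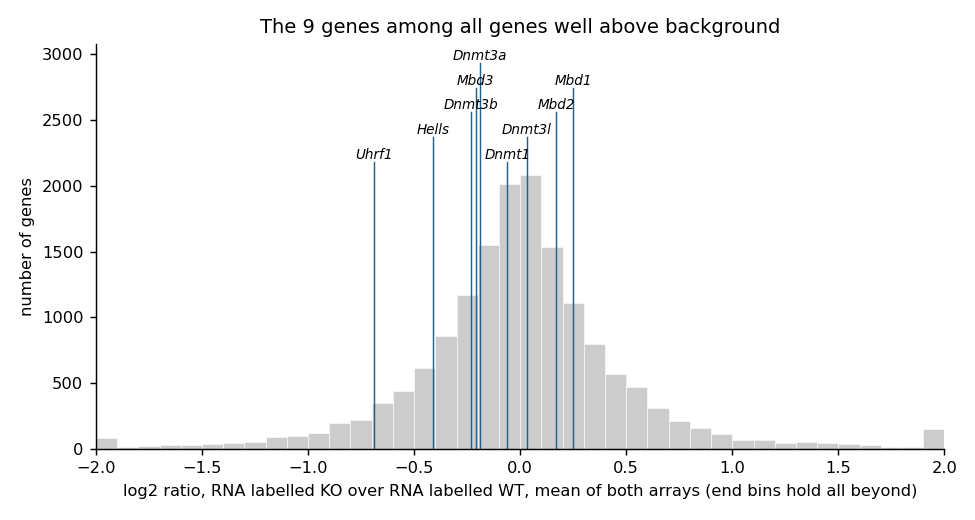
Number of genes (grey bars, steps of 0.1 log2 units, with genes beyond the axis gathered in the end bars) at each mean log2 ratio of KO over WT, over the 15877 genes well above background in at least 1 RNA. Blue lines mark the 9 genes, of which Uhrf1 and Hells lie in the left flank and the other 7 in the central mass.

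Genes that work with these 9 were described from lists, each by its counts, to be read against the same shares of all genes (9.50% lower and 9.35% higher at 1.4-fold), and its median. Of 12 further readers and cofactors 11 were well above background, and the median was -0.07 over the 12 and -0.03 over the 11. In this list 1 was lower at 1.4-fold and 0 were higher. It was Trdmt1, once called Dnmt2, which resembles the DNA methyltransferases but methylates transfer RNA. Its ratios of -0.98 and -1.23, with a mean of -1.10 ± 0.10, left it just short of 2-fold on the first array. Next came Mbd6 (-0.49) and Uhrf2 (-0.47), the paralogue of Uhrf1. The 3 highest means were those of Zbtb4 (0.18, with 0.01 and 0.35 on the arrays), Zbtb33 (0.11, with 0.18 and 0.03) and Setdb1 (0.11, with 0.19 and 0.03). The other probe of Zbtb33 and that of Setdb1 were each at -0.11, so neither gene has a direction here.

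Among 15 partners of maintenance methylation, 0 passed 1.4-fold on both arrays in either direction, and the median was -0.09 over the 15 and -0.14 over the 14 well above background. The lowest were Pcna, the sliding clamp that tethers Dnmt1 to replication forks (-0.64, with -0.37 and -0.92 on the single arrays), Smchd1 (-0.47, with -0.20 and -0.74 on the arrays and a mean of -0.04 at the probe farthest from it) and Usp7, a deubiquitinase that binds Dnmt1 and Uhrf1 (-0.46). The highest were Zbtb24 (0.42), Zfp57, which guards imprints (0.38), and Ehmt2 (0.33, with 0.10 and 0.56). Zbtb24 and Cdca7 (0.33) act with Hells, which was itself at -0.41.

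The NuRD complex, to which Mbd2 and Mbd3 belong, had a median of -0.13 over its 12 genes. The deacetylase Hdac1 was lower at 1.4-fold, with a mean of -0.90 ± 0.10, or 53.6% of the WT level, and it was the only one of the 12. Hdac2, its paralogue, was at 0.25 by the brighter of its probes and at -0.08 by the other. Rbbp4, a histone-binding subunit, was at -0.66 (-0.48 and -0.85), and Chd3 was at -0.21. Mta1 (0.50), Cdk2ap1 (0.38) and Mta3 (0.29) were the highest.

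Of 12 demethylation genes 9 were analysed here (not Tet1, Tet3 and Gadd45g), with a median of -0.09, or -0.11 over the 8 well above background. Tdg, the glycosylase that excises oxidised methylcytosine, was lower at 1.4-fold, with ratios of -0.54 and -0.75. Gadd45a was at -0.48 and Apex1 at -0.22, while Gadd45b was at 0.35, Tet2 at 0.09 and Smug1 at -0.09. Of 14 genes of methyl donor supply 0 passed 1.4-fold, and the median was 0.01. Among the lowest were Mat2b (-0.49) and Shmt2 (-0.47), and the highest were Mthfd1 (0.39), Shmt1 (0.32) and Ahcyl2 (0.16).

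Germline genes that promoter methylation holds silent in somatic cells were read as a list of 18. Of these 16 did not stand well above background on both arrays, among them Dazl, Ddx4, Sycp3 and Mael, and 0 passed 1.4-fold in either direction. The other 2 were Brdt (-0.14) and Tuba3a (-0.16), a tubulin whose probe may also bind close relatives. A level near background gives no ratio that could be read.

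Of 19 replication and cycling genes 7 were lower in KO-labelled RNA at 1.4-fold and 1 was higher, against 9.50% and 9.35% of all genes. At 2-fold 1 was lower and 1 higher, against 2.61% and 2.95%. All 19 were well above background, and their median was -0.29, beside -0.004 over all genes tested. Mki67, a marker of proliferating cells, had a ratio of -1.78 on each array, or 29.1% of the WT level. Ccnb1 was at -0.92 and Ccna2 at -0.85, and Mcm4, of the replicative helicase, was at -0.88 by its brighter probe but at 0.02 by the other. In the opposite direction Rrm2, a subunit of ribonucleotide reductase, was at 1.19, and Gins2 was at 0.16. E2f1, next after Rrm2 by its mean of 0.19, had opposite signs on the arrays (0.43 and -0.06). The summed level of the list was 126000 and 122000 units in KO-labelled RNA and 183000 and 179000 in WT-labelled RNA. Their part in the lower Uhrf1 and Hells was not tested. Fewer cycling cells and less RNA per cell cannot be told apart in bulk RNA. Of the 15 genes of this list with a promoter window, 6 held one of the E2F-type strings, against 2.6% of all genes.

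**Figure D4:**
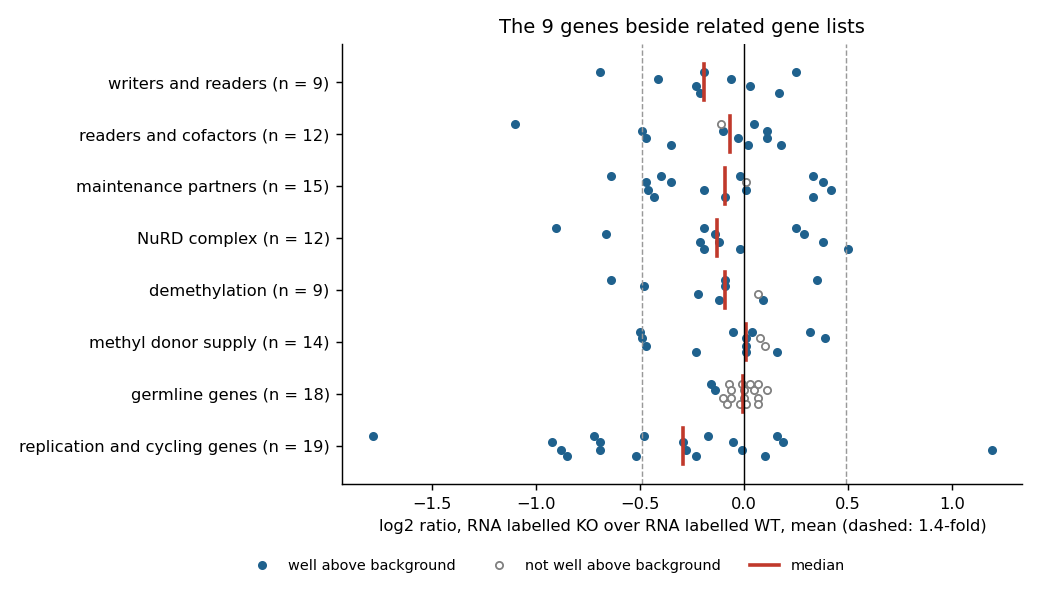
Mean log2 ratio of KO over WT for the 9 writers and readers and for 7 related lists, with 1 point per gene (filled, well above background in at least 1 RNA; open, not so), a red bar at the median over all points and dashed lines at 1.4-fold. The replication and cycling list has the lowest median, -0.29, and the germline genes are nearly all open points around 0.

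Across 9 other ways of processing, Uhrf1 stayed between -0.71 and -0.63 and Hells between -0.44 and -0.40. Dnmt1 stayed between -0.07 and -0.03. Dnmt3b spread from -0.52 to -0.22 and Mbd1 from 0.05 to 0.32.

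**Figure D5:**
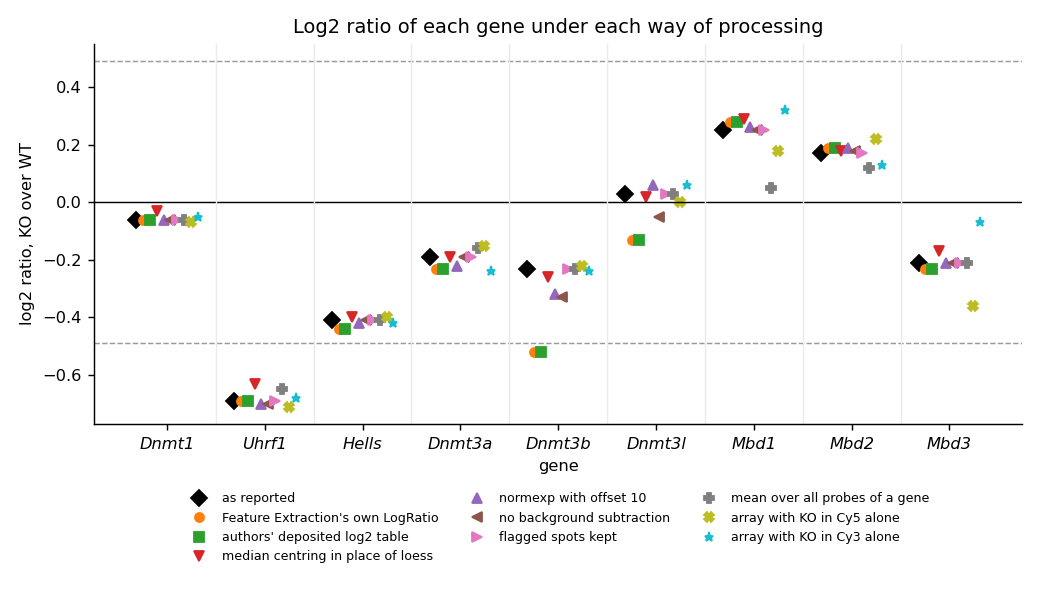
Log2 ratio of each of the 9 genes as reported (black diamond) and under 9 alternatives (coloured symbols), with dashed lines at 1.4-fold. Uhrf1 lies beyond the line under every alternative, the points of Dnmt3l lie on both sides of 0, and those of Mbd3 separate by array.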

How the data were processed

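RNA of Lats2 KO and WT MEFs was hybridised to 2 Agilent whole mouse genome arrays with the dyes exchanged. Per the file headers, the authors read the scans with Agilent Feature Extraction 10.5.1.1 and deposited spot and background intensity in arbitrary units. The deposited scan files also give log10 of red over green, from signals that the program had corrected for background and dye. A second deposited table, of log2 KO over WT for each probe, served as an alternative. Depth does not apply to arrays, and their number limits the precision.

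Intensities were background corrected in limma 3.58.1 and R 4.3.3 (normexp, offset 50) and normalised by loess within each array, with control spots and outlier-flagged spots left out. The brightest of a gene's probes stood for it. Channel levels are values after loess and Aquantile and include the offset of 50. A gene was called when it passed the fold on each array in 1 direction and its higher RNA carried the program's flag for signal well above background on each array. All steps covered all 41174 probes and were tested on simulated data. Names are those of the files. Accessions of 13 of the 15 probes led to the same gene in the RefSeq table, and the other 2 are not in it. Some listed genes (Tet2, Ahcyl2, Gins2) carry older names in the files and were found by accession. Genes of the lists are named where they passed 2-fold on both arrays or were among the 3 highest or 3 lowest well above background, and Cdca7, Hdac2, Ccna2 and the germline genes near background were added after their values were seen. Some genes of the lists are not reported here. The members and lists were chosen with earlier results of these data known. Tables and plots were made with Python 3.11.15, pandas 2.3.3, scipy 1.17.1 and matplotlib 3.10.9.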

Additional observations from a re-analysis of the deposited data

How the results depend on the processing

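Of 209 recomputed values, 200 stayed within the array spread (for counts, within 1.5 times) and 9 did not, and Dnmt3l took the opposite sign in 3 of its 9. The count of members at least 1.4-fold lower was 0 with median centring in place of loess, against 1 as reported. The mean of Uhrf1 was then -0.63. The median of the germline genes was -0.15 over the 2 well above background, against -0.01 over all 18, since fewer genes enter. Among the members, the deposited log2 table, like Feature Extraction's ratio, moved Dnmt3b to -0.52 and Dnmt3l to -0.13, the mean over all probes moved Mbd1 to 0.05, and Mbd3 was -0.36 on the array with KO in Cy5 alone and -0.07 on the array with KO in Cy3 alone. The causes were not tested. Over all genes tested, 469 were 2-fold higher and 414 lower as reported, 941 and 866 by the deposited table or Feature Extraction's ratio, and 250 and 138 with median centring, a different split. At 1.4-fold the counts were 1485 and 1509 as reported, 2235 and 2358 by the deposited table, and 537 and 436 when arrays were centred on the median. By the methods' rule, a fold change of 2 together with a t-test at its threshold, 408 genes were higher and 358 lower. The t-test has 1 degree of freedom here and reads array error alone. With Benjamini-Hochberg adjustment of the t-test, the rule left 0 and 0. Signal over background limits Dnmt3l, Dnmt3b and the germline genes. No paired analysis was possible because there is only 1 replicate of each genotype.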
